A study of Canis lupus with 23 samples.

Results

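Heat shock and unfolded protein response genes were followed across 23 canine tumors. The set was written as 36 genes chosen by name: cytosolic and mitochondrial chaperones with the heat shock transcription factor HSF1, and genes of the endoplasmic reticulum (ER) with the transcription factors of its stress response. Expression was read on the Affymetrix Canine Genome 2.0 array, whose probesets are groups of short oligonucleotides matched to 1 transcript. Of the 36 genes, 34 had probesets annotated with that symbol alone, out of 15115 annotated genes. CRELD2 and DNAJA1 had none and were not analysed here. All 34 were among the 9972 genes kept by the filter on low signal. The 34 were read by 82 probesets, 8 genes by 1 probeset and 26 by 2 to 5, and 39 of the probesets carry the suffix s_at and 2 the suffix x_at, which mark probes that can match more than 1 transcript.

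The tumors were biopsies from pet dogs, with total RNA amplified to cDNA before hybridization and 1 array per tumor. They comprised 7 lymphomas, 5 melanomas, 4 sarcomas (2 diagnosed as STS, soft tissue sarcoma, and 2 as sarcoma), 3 transitional cell carcinomas of the bladder (TCC), and 1 each of hepatocellular carcinoma (HCC), nasal tumor, hemangiosarcoma and histiocytic sarcoma. No normal tissue was compared, so each value is relative to other tumors. Values are log2(signal + 16), where the signal is the deposited array intensity, averaged over the probesets of a gene; the added 16 understates differences at low signal. Lymphoma, melanoma, sarcoma and TCC were each set against the unweighted mean of the other 3 with limma. A gene was called at a Benjamini-Hochberg adjusted p under 0.05 over all 9972 genes, provided that its log2 fold change also reached 1 in either direction. The 4 comparisons share tumors, so a gene raised in 1 type pulls down the other 3.

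Cells keep proteins folded with chaperones, and they raise chaperone genes under stress. In the cytosol, unfolded protein releases HSF1, which drives genes of the HSP70, HSP90, HSP40 and small heat shock protein families. In the ER, the sensors PERK, IRE1 and ATF6 detect unfolded secretory protein. They act through ATF4 and DDIT3 (CHOP), through XBP1, and through ATF6 itself to raise ER chaperones and the machinery that returns misfolded protein to the cytosol for degradation. Secretory tissues such as liver and plasma cells depend on this response.

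The median signal of an array ran from 82.1 to 132.4 and the log2 3'/5' ratio of control transcripts, which RNA degradation can raise, from 3.74 to 5.40. The ratio was read after amplification, and the paper put only tumors that passed its RNA integrity check on arrays. The labels were checked against marker lists. All 9 melanocyte genes kept were higher in melanoma, 10 of 10 T cell and 6 of 8 B cell genes in lymphoma, 11 of 11 epithelial genes in TCC, and 13 of 15 extracellular matrix genes in sarcoma. The mean of 11 hepatocyte genes was 13.42 in the HCC and 4.79 to 5.92 in the other 22 tumors. The mean of 12 macrophage genes was 11.61 in the histiocytic sarcoma and 11.32 in the hemangiosarcoma, against 7.72 to 10.53 in the 4 replicated types. For 12 endothelial genes it was 9.18 in the hemangiosarcoma, against 6.43 to 7.85 in those types. The histiocytic sarcoma also stood apart in skeletal muscle genes, with a list mean of 11.80, against 5.10 to 7.71 in the other 22.

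Most of the 34 genes were bright, and the ER and mitochondrial chaperones were steady. Over the set, the median level in the 23 tumors was 10.64, against 8.19 for all 9972 genes. The median within-type SD was 0.46, against 0.567, without matching for level. By part, it was 0.437 for ER chaperones and 0.404 for mitochondrial chaperones. It was 0.574 for cytosolic chaperones, 0.585 for the ER stress transcription factors and 0.740 for ER-associated degradation genes. The 4 steadiest were HSPA9 (mitochondrial HSP70), HSPA8 (the constitutive cytosolic HSP70), HSP90B1 (the ER HSP90, GRP94) and CANX (calnexin, which holds glycoproteins until they fold). The widest within-type spread was in the stress-induced factors DDIT3 and ATF3, whose SDs exceeded those of 97.9% and 97.7% of all genes. Among the 4 types, 13 of the 34 genes differed in limma's F test at an adjusted p under 0.05, beside 35.6% of all genes, so the set as a whole differed among types about as often as any gene. The 13 were CANX, PDIA6, DNAJB9, SDF2L1, EDEM1, XBP1 and DDIT3 among the 20 ER genes, and HSPA8, HSPB1, BAG3, HSPA9, HSPD1 and HSPE1 among the other 14. The F test calls of CANX, SDF2L1 and HSPA8 were the least stable, lost under 7, 6 and 6 of 10 other settings.

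**Figure D1:**
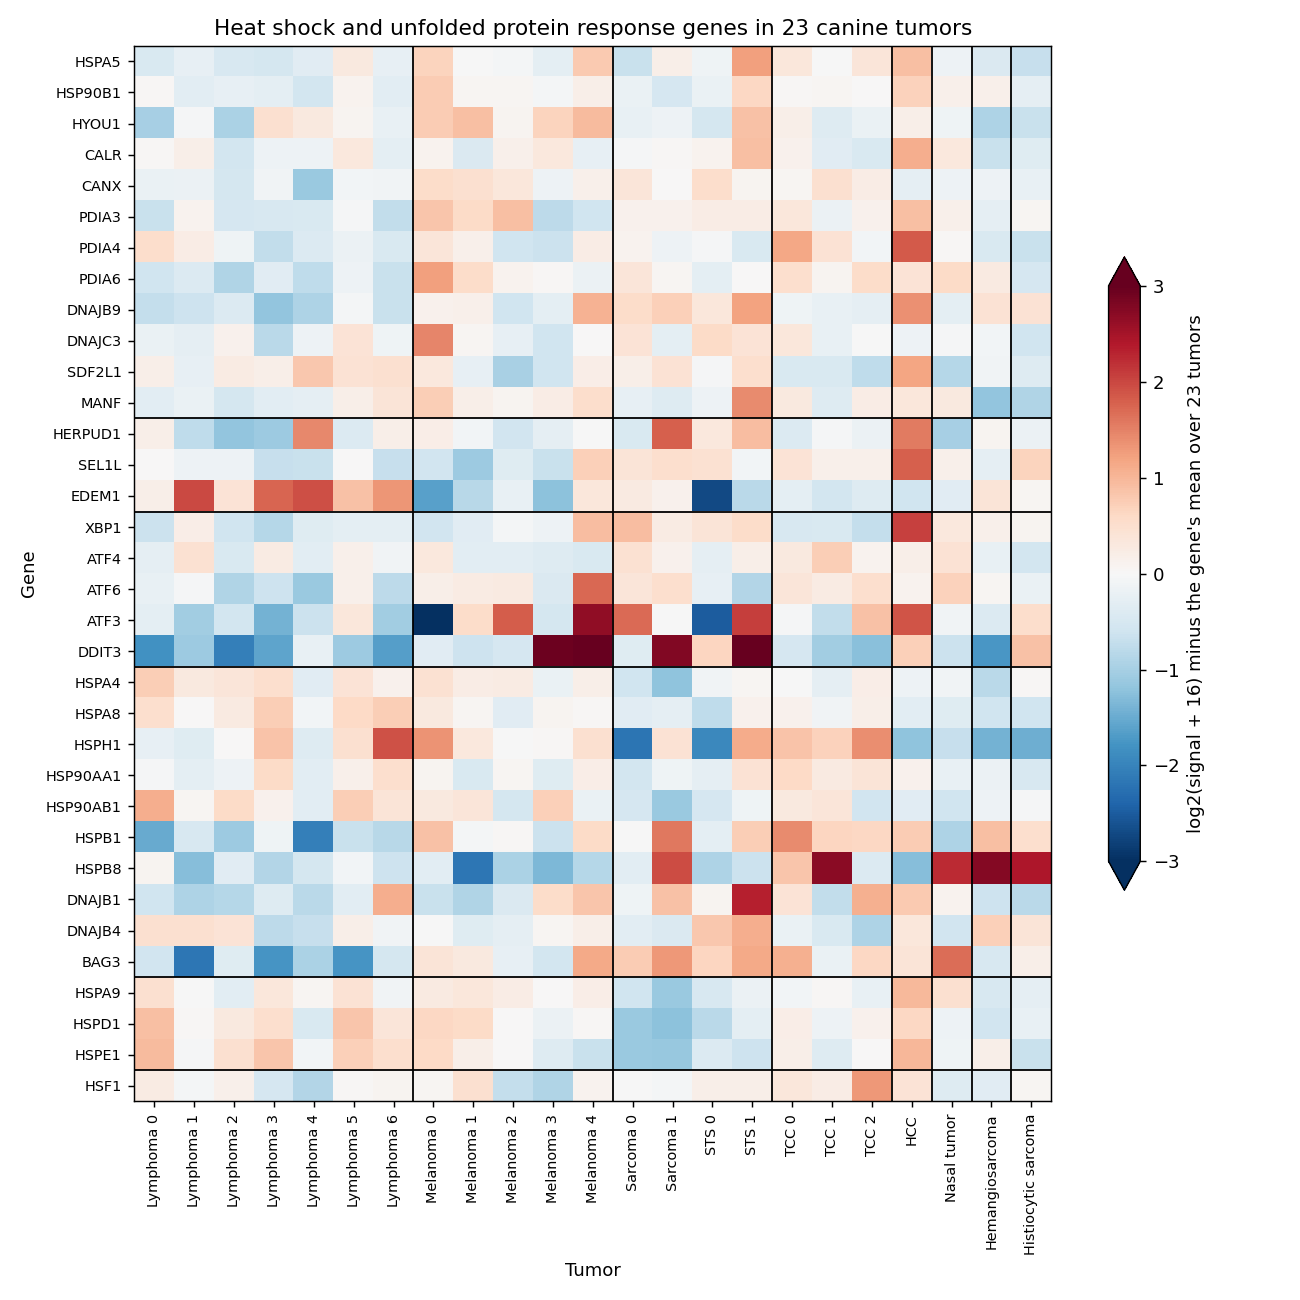
Each cell gives log2(signal + 16) of a gene (rows, grouped by role with lines between groups) in a tumor (columns, grouped by type) minus that gene's mean over the 23 tumors; colors are cut at 3 in size. DDIT3 and ATF3 show the widest spread within melanoma and sarcoma, EDEM1 is high in the lymphomas and XBP1, PDIA4 and SEL1L are high in the HCC.

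Lymphoma had lower BAG3, HSPB1 and DDIT3 and higher EDEM1 than the other 3 types. These were the 4 genes of the set called there, 1 higher and 3 lower, beside 6.95% of all genes higher and 12.1% lower. The biopsies are bulk tissue, so fewer cells of a type and less RNA per cell cannot be told apart in these values.

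EDEM1, which draws misfolded glycoproteins out of the folding cycle for degradation, was 11.64, 13.44, 11.88, 13.21, 13.40, 12.34 and 12.79 in lymphomas 0 to 6. The melanomas held 9.85 to 11.81, the sarcomas 8.76 to 11.73 and the TCC 10.92 to 11.17. Of the 7 lymphomas, 6 lay above the highest of the other 12 tumors, and only lymphoma 0 fell within their range. The log2 fold change was 1.84 (SE 0.37, limma adjusted p = 0.00101). EDEM1 was read by 1 probeset. The other ER-associated degradation genes did not pass the test in lymphoma: HERPUD1, an ER membrane protein that organises the degradation complex, averaged 10.95 ± 0.92 (SD, n = 7), and SEL1L, the adaptor of the HRD1 ubiquitin ligase, 10.33 ± 0.33.

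BAG3, a co-chaperone that steers HSP70 clients to autophagy, was 8.89, 7.30, 9.11, 7.70, 8.52, 7.70 and 8.93 in lymphomas 0 to 6. The melanomas held 8.92 to 10.60, the sarcomas 10.11 to 10.76 and the TCC 9.26 to 10.52. Of the lymphomas, 5 lay below every one of the other 12 tumors, and lymphomas 2 and 6 overlapped the lowest melanoma. The log2 fold change was -1.71 (SE 0.28, limma adjusted p = 0.000168), and both BAG3 probesets gave it, at -1.70 and -1.72. HSPB1, the small heat shock protein HSP27, was 9.09, 10.13, 9.52, 10.48, 8.57, 9.94 and 9.78 in the lymphomas, against melanomas at 9.96 to 11.50, sarcomas at 10.31 to 12.20 and TCC at 11.22 to 12.03. Again 5 of the 7 lymphomas lay below all others, with a log2 fold change of -1.49 (SE 0.29, limma adjusted p = 0.00074).

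DDIT3, the transcription factor CHOP at the end of the PERK branch, was 7.80, 8.53, 7.56, 8.03, 9.38, 8.53 and 7.97 in the lymphomas. It was 9.26, 8.99, 9.10, 12.55 and 14.56 in melanomas 0 to 4. It was 10.26 and 13.26 in the STS tumors, 9.24 and 12.38 in the tumors diagnosed as sarcoma, and 9.10, 8.57 and 8.35 in the TCC. Of the melanomas 2, and of the sarcomas another 2, were far above the rest, while the other melanomas and the TCC lay close to or within the range of the lymphomas. The log2 fold change in lymphoma was -2.03 (SE 0.68, limma adjusted p = 0.027), and without lymphoma 0 or lymphoma 2 the adjusted p went up to 0.054. DDIT3 was read by 1 probeset. In sarcoma the difference was 2.01 with a 95% interval of 0.33 to 3.69 and in melanoma 1.49 with an interval of -0.08 to 3.05, and neither passed the test (adjusted p = 0.139 and 0.278).

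ATF3, an immediate early factor that is also a target of ATF4, did not pass the test in any comparison but spread as widely. It was 4.46, 8.19, 9.44, 7.10 and 10.28 in melanomas 0 to 4, 5.14 and 9.70 in the STS tumors, 9.34 and 7.62 in the sarcomas, and 6.20 to 7.95 in the lymphomas. Melanoma 4 and STS 1 were high in both ATF3 and DDIT3, but melanoma 3 and sarcoma 1, high in DDIT3, had middling ATF3. Immediate early genes such as JUN and EGR1 are switched on within minutes of a stimulus. Of the 17 kept, 6 were lower and 1 higher in lymphoma, and the mean of all 18 annotated ones ran from 7.12 to 7.86 in lymphoma, while melanomas held 7.96 to 8.97, sarcomas 7.50 to 8.66 and TCC 7.55 to 8.04. It was highest in melanoma 4 (8.97) and STS 1 (8.66), and 7.96 in melanoma 3 and 7.60 in sarcoma 1. Their part in the DDIT3 and ATF3 values was not tested.

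**Figure D2:**
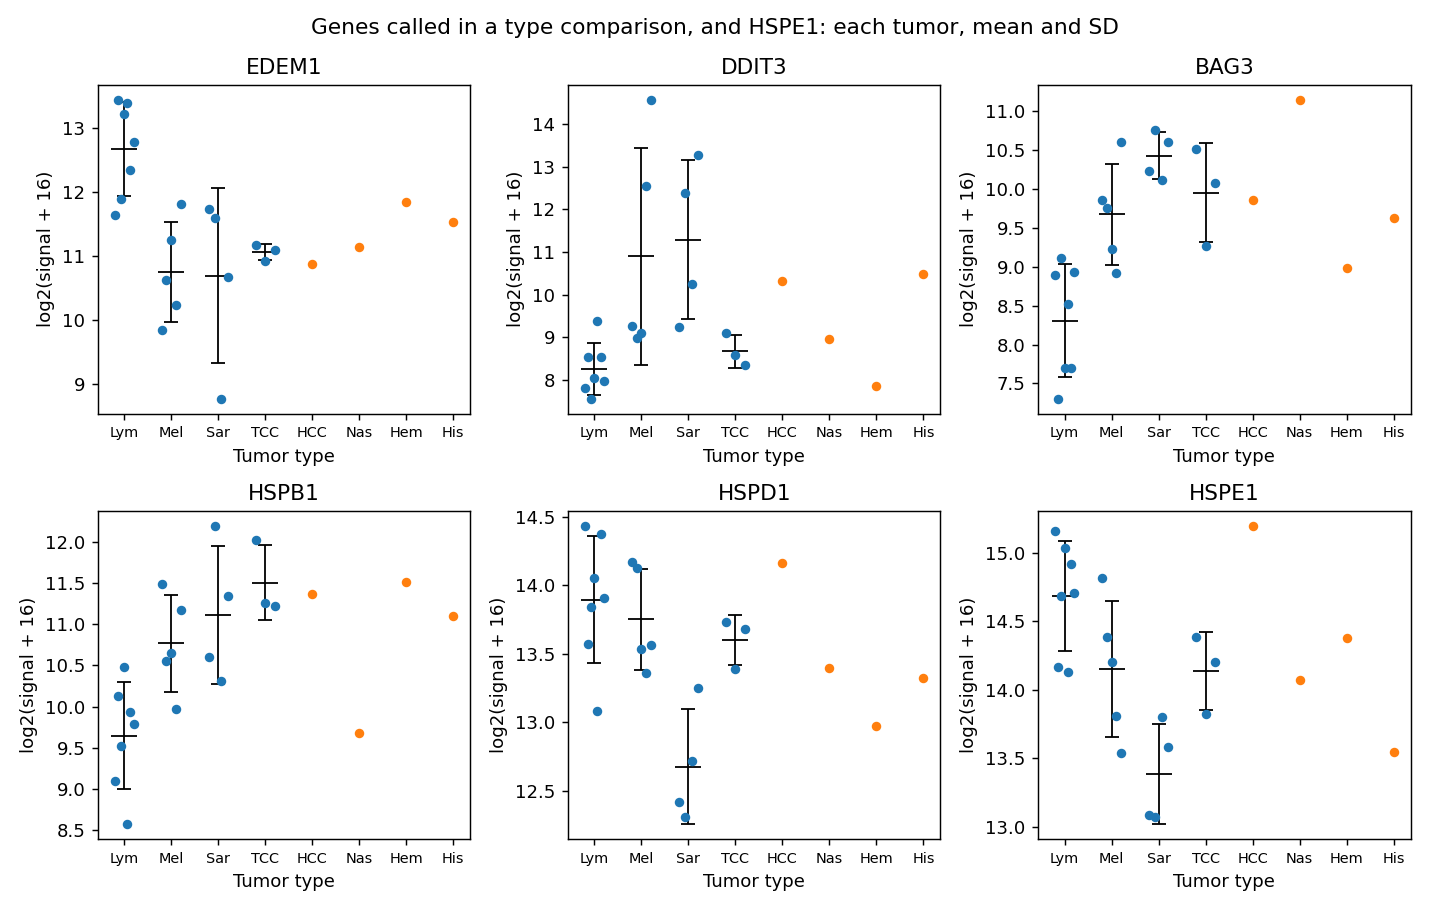
Points give log2(signal + 16) of each tumor for 6 genes, with the mean and SD as bars for lymphoma (Lym, n = 7), melanoma (Mel, n = 5), sarcoma (Sar, n = 4) and TCC (n = 3), and single tumors in orange (HCC, nasal tumor, hemangiosarcoma, histiocytic sarcoma). In EDEM1, 6 of the 7 lymphomas lie above the 12 tumors of the other 3 types, and in HSPD1 3 of the 4 sarcomas lie below all the others of those types.

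By adjusted p alone, 4 genes of the set were higher and 7 lower in lymphoma, beside 17.1% and 15.9% of all genes. ER folding genes made up 3 of the lower ones. PDIA6, a disulfide isomerase, averaged 10.45 ± 0.26 in lymphoma (SD, n = 7), against melanoma at 11.34 ± 0.56, sarcoma at 11.03 ± 0.27 and TCC at 11.37 ± 0.25, a log2 difference of -0.80 (limma adjusted p = 0.00223). DNAJB9, an ER co-chaperone that restrains IRE1, differed by -0.85 and CANX by -0.59. ATF6 differed by -0.74 (adjusted p = 0.036), which was lost when any of 8 single tumors was left out. On the higher side were HSPA8 at 0.47 and the mitochondrial chaperonin pair HSPD1 (HSP60) at 0.55 and HSPE1 (HSP10) at 0.79. HSPD1 did not pass with quantile normalization, the title block or all 23 tumors (limma adjusted p up to 0.110), nor without lymphoma 0, 3 or 5 or TCC 1 (up to 0.0753).

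Of the 20 ER genes, 18 had a log2 difference below 0 in lymphoma, with a median of -0.38, against 0.07 for all genes. Only SDF2L1 and EDEM1 were above 0. Single genes mostly did not pass: HSPA5 (BiP, the main ER HSP70) averaged 13.38 ± 0.28 in lymphoma (SD, n = 7), against melanoma at 13.88 ± 0.48, sarcoma at 13.82 ± 0.80 and TCC at 13.90 ± 0.21, with an adjusted p of 0.0908. The 10 cytosolic chaperones had 5 differences on each side of 0 and a median of 0.03. Among them HSP90AA1, the inducible cytosolic HSP90, averaged 15.35 ± 0.36 in lymphoma and 15.19 ± 0.29, 15.16 ± 0.41 and 15.71 ± 0.17 in melanoma, sarcoma and TCC.

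Other genes of the pathway were counted from lists. Of 19 further genes of the UPR sensors and the PERK branch, 7 were called lower and 0 higher by limma, beside the 12.1% and 6.95% of all genes; at an unadjusted p under 0.05 the counts were 7 lower and 2 higher, beside 20.2% and 23.4% of all genes. NFE2L2, the oxidative stress factor that PERK can activate, averaged 8.12 ± 0.64 in lymphoma, a log2 fold change of -2.09 (adjusted p = 3.04e-06), and was 1.62 higher in TCC. CREB3L1 and CREB3L2, ER-anchored factors of secretory cells, had log2 fold changes of -1.86 and -1.76 in lymphoma, and VLDLR, a lipoprotein receptor under PERK, -1.44. SLC7A11, the cystine transporter under ATF4, was called in TCC at 3.26. Of 47 further ER folding, glycosylation and translocation genes, 8 were lower and 0 higher in lymphoma, and 16 and 3 at an unadjusted p under 0.05, against the same shares of all genes.

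KDELR2, a receptor that returns escaped chaperones to the ER, was 10.29 to 11.01 in the lymphomas, with no overlap with the melanomas, sarcomas or TCC, and its log2 fold change was -1.17 (limma adjusted p = 1.99e-06). CALU and DNAJC10 had -1.25 and -1.30. UGGT2, a glycoprotein folding sensor, was -1.98 in lymphoma and 2.60 in melanoma. SERPINH1, the collagen chaperone HSP47, was 4.58 to 7.22 in the lymphomas, with a mean of 5.98 and a log2 fold change of -2.88, and averaged 9.85 ± 0.71 in sarcoma (SD, n = 4), a log2 fold change of 2.28. Of 15 extracellular matrix genes, 13 were lower in lymphoma. The list mean ran from 7.87 to 8.89 in lymphoma, against melanomas at 9.91 to 11.59, sarcomas at 10.90 to 12.46 and TCC at 8.92 to 10.43. It was 7.96 in the HCC, 8.81 in the nasal tumor, 8.55 in the hemangiosarcoma and 10.17 in the histiocytic sarcoma. The mean of the 12 ER chaperones was 12.14, 11.43, 11.15 and 11.04 in the same single tumors. The part of the matrix genes in the ER results was not tested.

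Of 39 further heat shock genes kept, 1 was higher and 4 lower in lymphoma, beside 6.95% and 12.1% of all genes, so in lymphoma the list was called no more often than any gene. In the F test over the 4 types 18 of the 39 passed, beside 35.6% of all genes. CRYAB, a small heat shock protein of lens and muscle, had a log2 fold change of -2.85 in lymphoma and 2.39 in melanoma. SQSTM1, the autophagy receptor p62, had -1.97 in lymphoma, and FKBP5, an HSP90 co-chaperone induced by glucocorticoids, 1.68. FKBP4, another HSP90 co-chaperone, was -1.64 in sarcoma and 1.67 in TCC, and BAG1 was 1.02 in TCC. Of 17 further ER-associated degradation genes, SELENOS was lower in lymphoma (-1.49) and UBE2J1 lower in TCC (-1.16). None of the 12 genes of TRiC and prefoldin, which fold actin and tubulin, was called in a comparison by limma; at an unadjusted p under 0.05, 4 were higher in melanoma and 4 lower in sarcoma, beside 9.23% and 10.7% of all genes, with 1 higher in lymphoma and 1 lower in TCC, beside 23.4% and 13.1%.

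**Figure D3:**
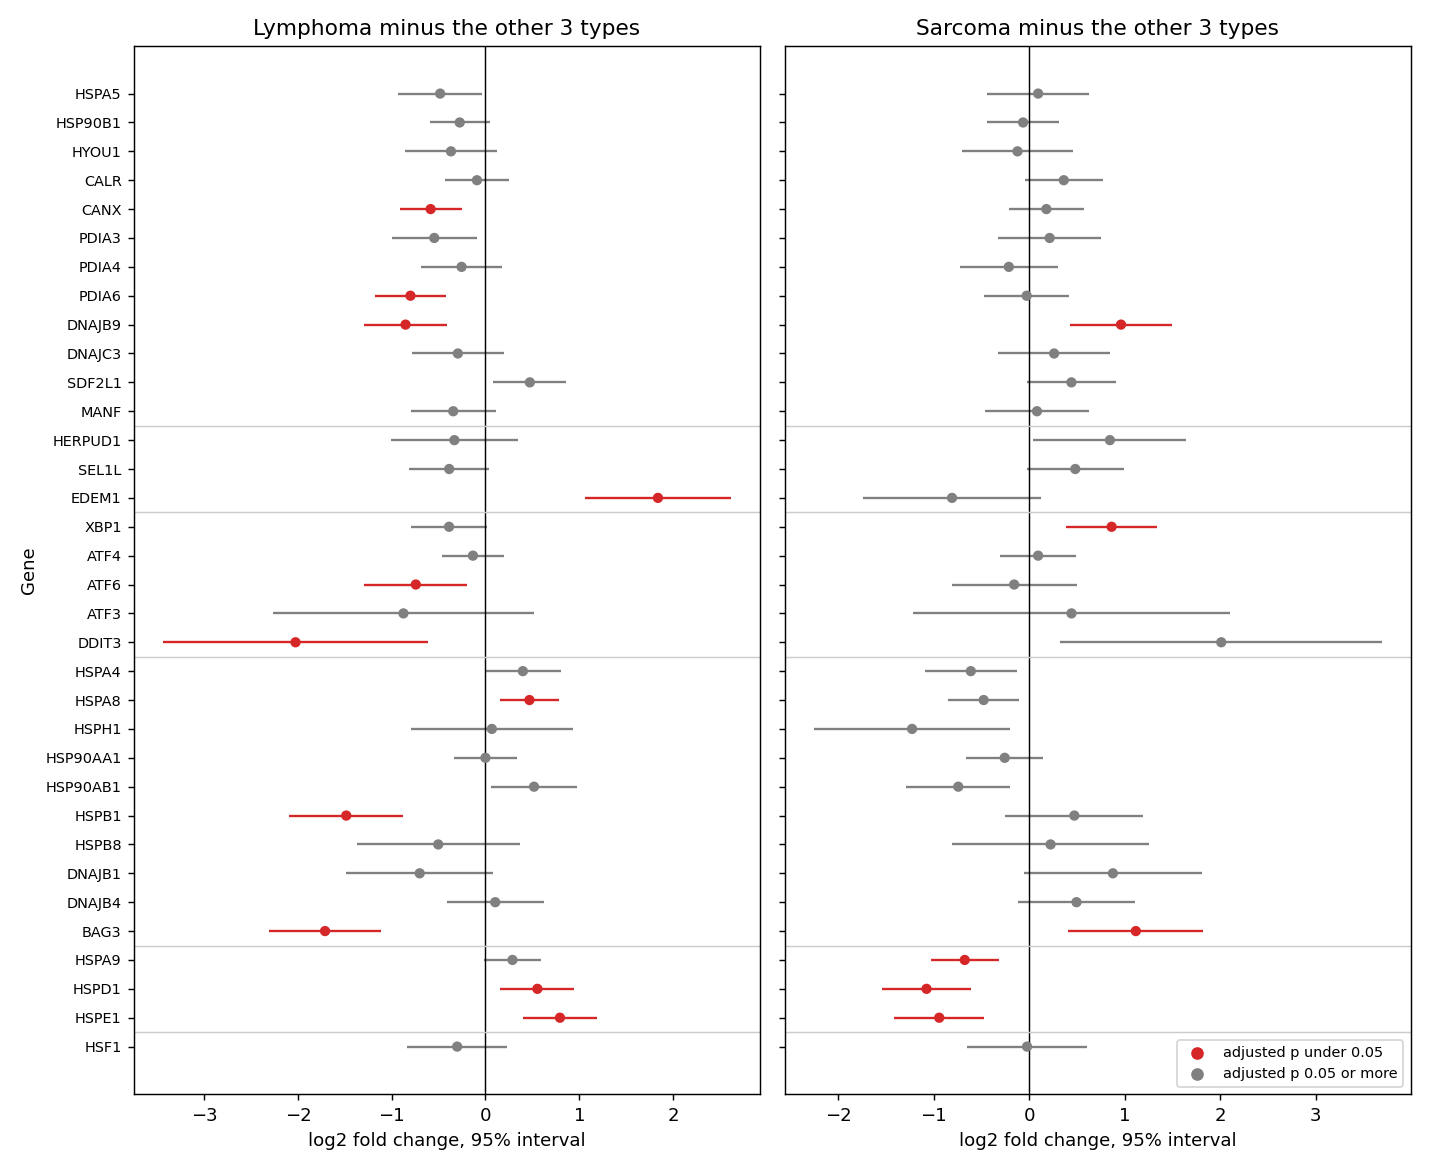
Points give the log2 fold change of the 34 genes in lymphoma (left) and sarcoma (right) against the mean of the other 3 types, with the 95% interval from limma; red marks an adjusted p under 0.05. In lymphoma 18 of the 20 ER genes (HSPA5 to DDIT3) lie below 0, and in sarcoma all 3 mitochondrial chaperones (HSPA9, HSPD1, HSPE1) lie below 0.

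Sarcoma had lower HSPD1, with the other mitochondrial chaperones below the other types by less. HSPD1 was 12.72 and 13.25 in the STS tumors and 12.42 and 12.31 in the tumors diagnosed as sarcoma, against lymphomas at 13.09 to 14.43, melanomas at 13.36 to 14.17 and TCC at 13.39 to 13.73. All but STS 1 lay below the other 15 tumors. The log2 fold change was -1.07 (SE 0.22, limma adjusted p = 0.00701), and its 3 probesets gave -1.04 to -1.10. HSPE1, the co-chaperonin of HSPD1, was 13.80, 13.58, 13.08 and 13.07 in the same tumors, against 14.13 to 15.16, 13.54 to 14.81 and 13.83 to 14.38 in lymphoma, melanoma and TCC. Both tumors diagnosed as sarcoma lay below all others; the difference was -0.94 (adjusted p = 0.0153), from 1 probeset with the suffix x_at. HSPA9, which imports and folds mitochondrial proteins, differed by -0.67 (adjusted p = 0.0208). HSPE1 did not pass with all 23 tumors (limma adjusted p = 0.0703) or without sarcoma 0 or sarcoma 1 (up to 0.0579). HSPA9 did not pass with the title block or all 23 tumors (up to 0.0917) or without sarcoma 1 (0.0985).

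HSPD1 was the single gene of the set called lower in sarcoma, beside 1.71% of all genes, and BAG3 the single one called higher, beside 4.33%. By adjusted p alone 3 were lower and 3 higher, beside 3.04% and 4.84%. BAG3 had a log2 fold change of 1.12 (limma adjusted p = 0.0474), and this call was lost under 8 of 10 other settings and when any of 13 of the 19 tumors was left out. DNAJB9 averaged 9.40 ± 0.36 in sarcoma (SD, n = 4) and was 0.96 higher than the other 3 types, and XBP1 averaged 10.83 ± 0.30 and was 0.86 higher. Neither passed with the title block, with all 23 tumors or without the STS tumors. DNAJB9 was also lost without STS 1 or sarcoma 1, and XBP1 without STS 0, STS 1 or sarcoma 0. Of 15 proliferation genes, 2 were called lower in sarcoma and 10 higher in lymphoma, the directions of the mitochondrial chaperones there. The list mean ran from 8.23 to 9.08 in sarcoma. It was 9.75 to 10.72 in lymphoma, 8.27 to 9.78 in melanoma and 9.23 to 9.38 in TCC. In the HCC it was 7.61, while HSPA9 and HSPE1 were the highest of all tumors there. The part of the proliferation genes in the mitochondrial chaperone values was not tested. Further mitochondrial proteostasis genes gave 0 limma calls of 15 in sarcoma and in lymphoma, with 3 lower in sarcoma and 2 higher in lymphoma at an unadjusted p under 0.05, beside 10.7% and 23.4% of all genes.

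In melanoma 0 genes of the set were called higher and 0 lower by limma, beside 2.55% and 1.77% of all genes, and by adjusted p alone again 0 and 0, beside 3.13% and 2.39%. At an unadjusted p under 0.05, 2 were higher and 2 lower, beside 9.23% and 10.7% of all genes. HYOU1, an ER HSP110, averaged 10.40 ± 0.35 in melanoma (SD, n = 5), a difference of 0.78 with a 95% interval of 0.24 to 1.32 and an adjusted p of 0.0823. In TCC 0 were called higher and 0 lower, beside 6.82% and 4.36%, and 0 and 0 by adjusted p alone, beside 7.84% and 5.42%; 5 were higher and 2 lower at an unadjusted p under 0.05, beside 13.5% and 13.1%. HSPB8, a small heat shock protein that works with BAG3, was 7.30 to 10.41 in the TCC, a difference of 1.59 with an interval of 0.44 to 2.74 and an adjusted p of 0.0629. With the brightest probeset of each gene, HSPB8 was called higher in TCC and lower in melanoma, and HSF1 higher in TCC.

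The remaining genes of the set did not pass the test in any comparison. Among ER genes, the disulfide isomerase PDIA3 averaged 12.24 ± 0.32 in lymphoma (SD, n = 7), with melanoma at 12.82 ± 0.81, sarcoma at 12.81 ± 0.06 and TCC at 12.72 ± 0.26. HSP90B1 averaged 14.38 to 14.79 over the 4 types, ATF4 12.86 to 13.47 and DNAJC3, an inhibitor of PERK, 9.95 to 10.37. Among cytosolic genes, HSP90AB1, the constitutive HSP90, averaged 10.90 ± 0.47 in lymphoma and 9.96 ± 0.40 in sarcoma, and HSPA4, an HSP110 relative, 8.81 ± 0.34 and 8.05 ± 0.57. Dim probesets lower both averages. The HSP90AB1 probesets averaged 13.48, 14.31, 14.25, 4.99 and 5.60, and those of HSPA4 13.26, 6.13 and 6.15. The bright HSP90AB1 probesets differed by 0.41 to 0.59 in lymphoma and -0.74 to -0.79 in sarcoma. The bright HSPA4 probeset differed by 0.47 and -0.59. DNAJB1 averaged 7.47 to 8.65 over the types and DNAJB4, another HSP40, 8.07 to 8.88. The averages of DNAJB1 and DNAJC3 also include a dim probeset, at 4.98 and 5.46. HSPH1 was 9.30 to 12.61 within the sarcomas alone. HSF1, the factor itself, averaged 6.47 to 7.29 over the types. Its probesets averaged 9.24, 5.01 and 5.75, so dim ones lower this average too. The brightest HSF1 probeset averaged 10.27 in TCC, a difference of 1.19.

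The HCC carried high levels of many ER genes of the set. It is a single tumor, so its values have no replicate and no test. Of the 34 genes, 10 were at least 1 above the mean of the other 22 tumors and 2 at least 1 below, beside 13.5% and 28.3% of all genes. Of the 20 ER genes, 8 were at least 1 higher and 6 were the highest of the 23 tumors, where 9.21% of all genes were highest. The median difference was 0.84 over the ER genes and -0.01 over the 10 cytosolic chaperones, against -0.32 over all genes. With quantile normalization these were 0.43, -0.32 and -0.20, and 7 ER genes were at least 1 higher.

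XBP1, the factor that IRE1 activates by splicing, was 12.36 in the HCC, against 9.46 to 11.24 in the other 22. PDIA4, a disulfide isomerase, was 13.89, against 11.33 to 13.23, and SEL1L was 12.45, against 9.58 to 11.39. DNAJB9 (10.07 in the HCC), SDF2L1 (10.85, a BiP co-factor) and CALR (13.75, calreticulin) were also above all others. HERPUD1 was 12.74, second to sarcoma 1 at 12.99, and ATF3 was 9.51, below 2 other tumors. The array does not separate spliced from unspliced XBP1. HSPA9 (12.76) and HSPE1 (15.20) were above every other tumor as well, HSPE1 only just, since the next tumor was at 15.16. With quantile normalization the excess over the mean of the other 22 was 0.38 for HSPE1, against 1.04 as deposited, and 0.63 for CALR, against 1.15. On the low side were HSPB8 at 6.44 and HSPH1, a cytosolic HSP110, at 10.29, with differences of -1.33 and -1.27 from the mean of the other 22; HSPB8 was at -2.74 with the brightest probeset. The HCC array had 27.2% of its probesets below a signal of 16, against 19.8% to 23.9% on the other arrays, and a 3' over 5' log2 ratio of 5.38. Their part in the HCC values was not tested.

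**Figure D4:**
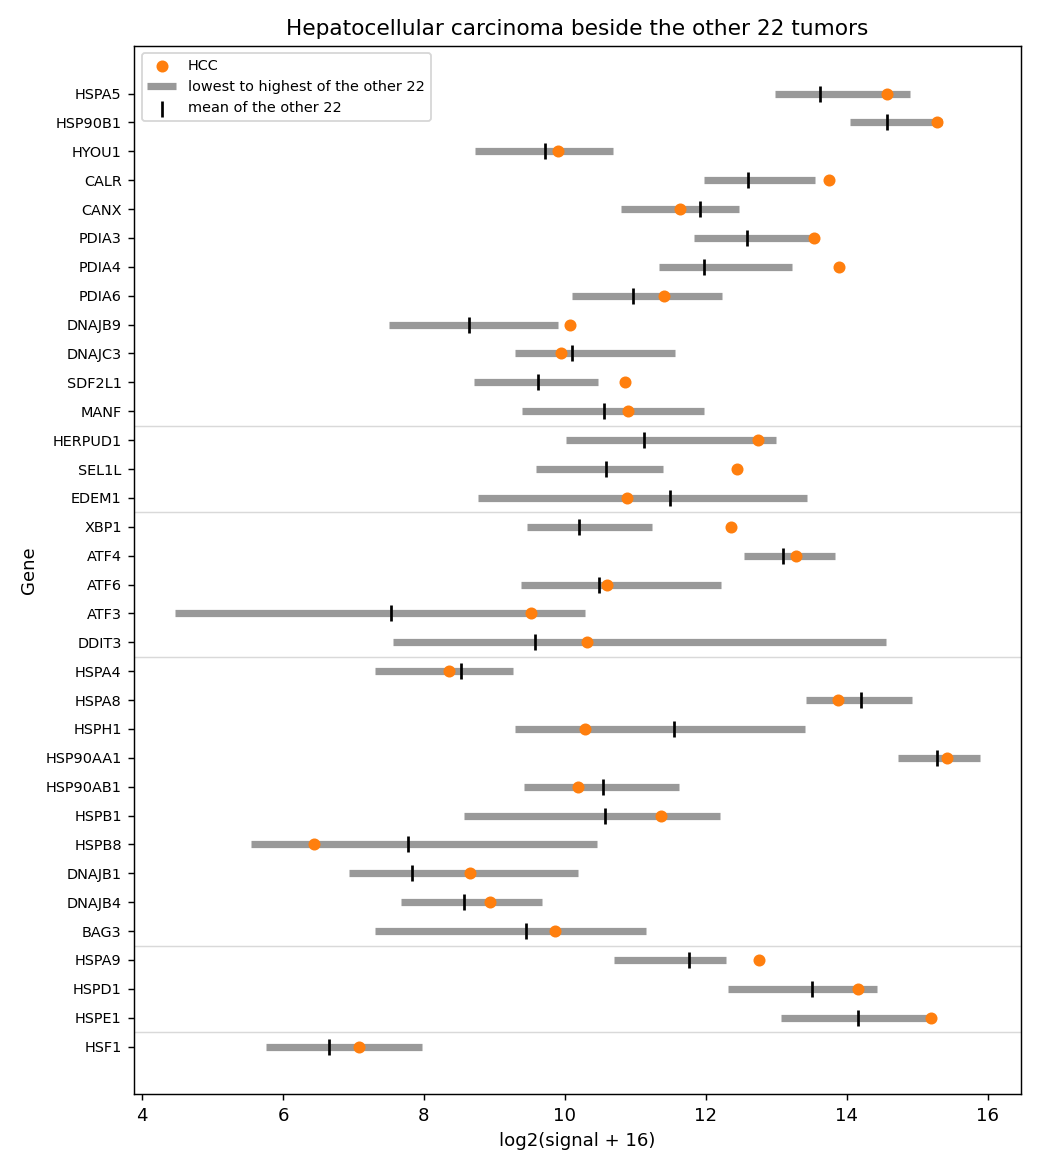
Orange points give log2(signal + 16) of the 34 genes in the HCC, with gray bars from the lowest to the highest of the other 22 tumors and a black mark at their mean. XBP1, PDIA4, SEL1L, DNAJB9, SDF2L1 and CALR lie beyond the bar on the high side, and the cytosolic chaperones (HSPA4 to BAG3) lie within it.

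The other 3 single tumors had few genes of the set beyond 1. In the nasal tumor 2 were higher and 1 lower, beside 11.2% and 9.48% of all genes: BAG3 at 11.15, the highest of the 23, HSPB8 at 9.95, and HERPUD1 at 10.19 on the low side. In the hemangiosarcoma 1 was higher and 3 lower, beside 11.6% and 8.98%: HSPB8 at 10.46, the highest of the 23, and DDIT3 at 7.86, HSPH1 at 10.08 and MANF, a secreted ER stress factor, at 9.39, the lowest of the 23. In the histiocytic sarcoma 1 was higher and 1 lower, beside 10.4% and 7.95%: HSPB8 at 10.14 and HSPH1 at 10.04. HSPB8 is abundant in muscle. The skeletal muscle list mean was 11.80 in the histiocytic sarcoma and 6.56 in the hemangiosarcoma, and the smooth muscle list mean 8.45 and 9.94; in the nasal tumor these were 5.46 and 7.03. Their part in the HSPB8 values was not tested.

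Within types, pairs of genes from 1 compartment had higher median correlations than pairs of all genes, and so did pairs across the ER and cytosol. After each type's mean was removed from the 19 tumors of the 4 replicated types, the median correlation over pairs of genes was 0.28 for the 66 pairs of ER chaperones, 0.17 for the 45 pairs of cytosolic chaperones and 0.63 for the 3 pairs of mitochondrial chaperones, against 0.01 for all genes. ER genes with cytosolic chaperones had 0.15 over 200 pairs, no lower than the 0.15 among the 20 ER genes. For ER chaperones with cytosolic chaperones it was 0.23 over 120 pairs, above the 0.17 within the cytosolic chaperones. These are descriptions over 19 tumors that share array, scaling and amplification. The closest pairs were HSPD1 with HSPE1 at 0.83, HSPA4 with HSPD1 at 0.82, and HSPA5 with MANF at 0.81. The first was 0.805 at its lowest when 1 tumor was left out, while HSPA5 with MANF fell to 0.61 without STS 1. DDIT3 and ATF3 correlated at 0.34, and at 0.08 without melanoma 4.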

How the data were processed

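Per probeset, the authors deposited 1 linear intensity, the MAS5 signal, already scaled on each array, for 42924 probesets beside controls on 23 arrays. Of these, 29254 probesets had 1 gene symbol in the platform annotation. From the deposited intensity, log2(signal + 16) was averaged per symbol, and a gene was kept where at least 3 of 23 arrays exceeded 7.03, the median of all gene values. The 19 tumors of the 4 replicated types were fitted with limma 3.58.1 in R 4.3.3 with a variance trend (15 residual degrees of freedom). P-values were adjusted by Benjamini-Hochberg. The number of arrays limits the precision. The steps were tested on simulated data. The members and lists were chosen with earlier results of these data known. All members are accounted for; up to 5 called genes with the smallest F test p were named per pathway list, and in each single tumor the members with the largest difference. STS and sarcoma diagnoses were joined. Groups came from the diagnosis label. Fits were repeated with a pseudocount of 1, a pseudocount of 64, quantile-normalized values, every gene unfiltered, the brightest probeset, no variance trend, the title number as a block, all 23 tumors, the 3' over 5' ratio as a covariate, no STS tumors, and each tumor left out. The 5 control probeset pairs of that ratio, and the settings for group directions, the HCC and pairs of genes, were chosen after seeing the data.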

Additional observations from a re-analysis of the deposited data

Results flagged for a closer look

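Of 102 groups of 4 to 7 tumors checked for a tumor far from the rest of its type, 1 for each of 34 genes in lymphoma, melanoma and sarcoma, 5 held one by Dixon's criterion, and chance gives about 1 in 20. HSPA5 was 13.96 in lymphoma 5, against 13.15 to 13.42 in the other lymphomas. CALR was 13.55 in STS 1, against 12.61 to 12.75 in the other sarcomas. MANF was 11.98 in STS 1, against 10.19 to 10.43. ATF4, the PERK branch factor, was 13.41 in melanoma 0, against 12.64 to 12.79 in the other melanomas. DNAJB1, the main cytosolic HSP40, was 8.96 in lymphoma 6, against 6.94 to 7.56 in the other lymphomas.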

How the results depend on the processing

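The 4 lymphoma calls kept their direction under all 10 other settings and in all 19 fits without 1 tumor, and EDEM1, BAG3 and HSPB1 stayed called in each; DDIT3 was lost without lymphoma 0 or 2. The count of members lower in lymphoma was 2 to 3 without 1 tumor and higher 1 to 1. Members varying among the 4 types numbered 10 to 16 without 1 tumor. The title numbers do not pair the tumors, which came from different dogs: tumors of different types with the same number had a mean correlation of 0.01, and 0 of 23 pairs exceeded 0.1. With the title number as a replicate block, 7 members varied among types, against 13 without it, and 0 were higher and 2 lower in sarcoma. Members higher in sarcoma numbered 0 with no filter, no variance trend, all 23 tumors, the 3' over 5' covariate or no STS tumors, and 0 to 3 without 1 tumor. Members lower in sarcoma were 2 without the STS tumors, and 0 to 3 without 1 tumor. HSPD1 fell short of the fold of 1 without sarcoma 0 or sarcoma 1, where its adjusted p stayed at 0.0303 or less. Members higher in TCC were 1 at a pseudocount of 64 and 2 with the brightest probeset, and 0 to 2 without 1 tumor. Members lower in melanoma were 1 with the brightest probeset and 1 without the STS tumors, and 0 to 1 without 1 tumor; higher in melanoma and lower in TCC stayed at 0 to 0. HSPA8 in lymphoma did not pass with quantile normalization or the block (difference 0.21 to 0.57 over the 10 settings). The cause of these changes was not tested. The ER genes below 0 in lymphoma numbered 17 to 18 of 20 over all 29 fits, and all 3 mitochondrial chaperones were below 0 in sarcoma in each; the median of the cytosolic chaperones in lymphoma ran from -0.23 to 0.13.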
